A study of Mus musculus with 6 samples.

Results

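Genes of neural crest glia, pigment cells and their niche, 8 in all, were followed through maps of monomethylated histone H3 lysine 4 (H3K4me1) in the embryonic mouse whisker pad. They were drawn by name from 21755 protein-coding genes of GENCODE vM21 on chromosomes 1 to 19 and X. Erbb3 and Foxd3 represent glia and their precursors, Mitf, Kit, Dct, Tyrp1 and Pmel represent pigment cells, and Kitl represents the niche. A peak was assigned to a gene when it overlapped the gene body or the 5 kb on either side. A peak up to 100 kb from the body was also assigned when the nearest protein-coding start site was one of that gene. By this rule 15 peaks in 9 merged regions, of 19251 merged regions in all, belonged to the 8 genes. Of these peaks, 6 came from replicate 1, 3 from replicate 2 and 6 from replicate 3.

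The tissue was the whisker pad of wild-type embryos of the strain labelled B6/J2 at embryonic day 12, taken whole and dissociated into single cells. CUT&Tag was used, in which an antibody brings a transposase to the mark and the freed DNA is sequenced. The series has 6 samples, 3 with an antibody against H3K4me1 and 3 with IgG. Peak lists of the 3 H3K4me1 samples, replicates 1, 2 and 3 after the pad number of the title, were used, and the IgG samples were not analysed here. Nothing in the labels says whether the pads came from separate embryos, so the spread given here is between these samples and may be technical. The pad holds mesenchyme, epithelium, nerves and their glia, vessels and a minority of pigment cell precursors, so that fewer cells of a type and less of the mark per cell cannot be told apart in these lists.

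The neural crest is a migratory population of the embryo that gives rise to the mesenchyme of the face, to the glia of peripheral nerves and to the melanocytes of the skin. Melanoblasts, the precursors of melanocytes, arise both directly from migrating crest cells and from Schwann cell precursors, the glia that travel along growing nerves. H3K4me1 lies on enhancers in use, on enhancers that are primed but not in use, and on the shoulders of active start sites, where it is often low at the start site itself.

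The lists held 16788, 12969 and 13998 peaks in replicates 1, 2 and 3, and the lower limit of total signal was 14265, 24247 and 19337 pileup units. Total signal adds up the number of fragments over each base of a peak. It is not scaled to depth, so a peak is described by its percentile of total signal within its own list, with 100 for the strongest. GEO's source field gives adult kidney for 4 samples, including H3K4me1 replicates 2 and 3, although the titles of these samples give whisker pad. The titles were used here, and replicate 1 alone has the pad in both fields. Of 10 facial mesenchyme markers, 10, 8 and 10 carried a peak in replicates 1, 2 and 3 over the body or its 5 kb flanks. Of 6 surface epithelium markers the numbers were 4, 4 and 2, and of 10 adult kidney markers 2, 2 and 1. Among all protein-coding genes the shares were 24.9, 22.6 and 19.6%. The mesenchyme counts were above these shares every time. The epithelium counts were above them too, but 2 of 6 in replicate 3 was near what 6 genes of any kind would give. Epcam and Krt14 of the epithelium had no peak in any replicate. The kidney counts were slightly below the shares of all genes, near what 10 genes of any kind would give. A low kidney count is therefore uninformative here, and the presence of kidney tissue was not tested. The kidney genes with a peak were Slc12a1, a transporter of the loop of Henle, in all 3 replicates (4.39, 4.46 and 2.79% of the bases of the gene with its flanks) and Aqp2, a water channel of the collecting duct, in replicates 1 and 2 (13.9 and 21.2%). The other 8 of the 10, among them Nphs1 of podocytes and Umod of the loop of Henle, had none in any replicate.

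No gene of the 8 carried a peak over its body or flanks in all 3 replicates. Erbb3 carried one in replicates 1 and 2, Kit in replicate 1, and Mitf and Kitl in replicate 3, whereas Dct, Tyrp1, Pmel and Foxd3 carried none. A peak was found in replicate 1 at 2 of the 8 genes, against 24.9% of all protein-coding genes. It was found at 1 of 8 in replicate 2, against 22.6%, and at 2 of 8 in replicate 3, against 19.6%. In at least 1 replicate the count was 4 of 8 against 28.8%, and in all replicates it was 0 of 8 against 15.5%. A group of 8 genes at the share of all genes would have a count of about 1 in all replicates, so the 0 was near the background.

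Long genes meet peaks more often, and the genes were therefore also read against genes of their own length. Of the 4 genes under 30 kb (Tyrp1, Pmel, Erbb3 and Foxd3), 1 carried a peak in at least 1 replicate, against 20.8% of genes of that length, and 0 in all replicates against 8.93%. Of the 3 genes from 30 to 100 kb (Kit, Kitl and Dct), 2 carried a peak in at least 1 replicate against 33.8%, and 0 in all replicates against 18.8%. Mitf, the 1 gene over 100 kb, had a peak in 1 replicate, where 63.6% of such genes had one in at least 1 replicate and 46.0% in all. Start sites were read in the same way, with 1 kb on either side of every protein-coding start. Erbb3 and Kitl had a peak there in at least 1 replicate, 2 of 8 genes against 16.0% of all genes, and 0 of 8 had it in all replicates against 6.17%. With peaks up to 100 kb away counted as well, 5 of 8 genes had an assigned region in at least 1 replicate against 33.5%, and 1 of 8, Dct, had one in all replicates against 18.7%. These shares describe 1 tissue with no contrast between samples, and genes are not replicates, so no test was made of them.

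**Figure D1:**
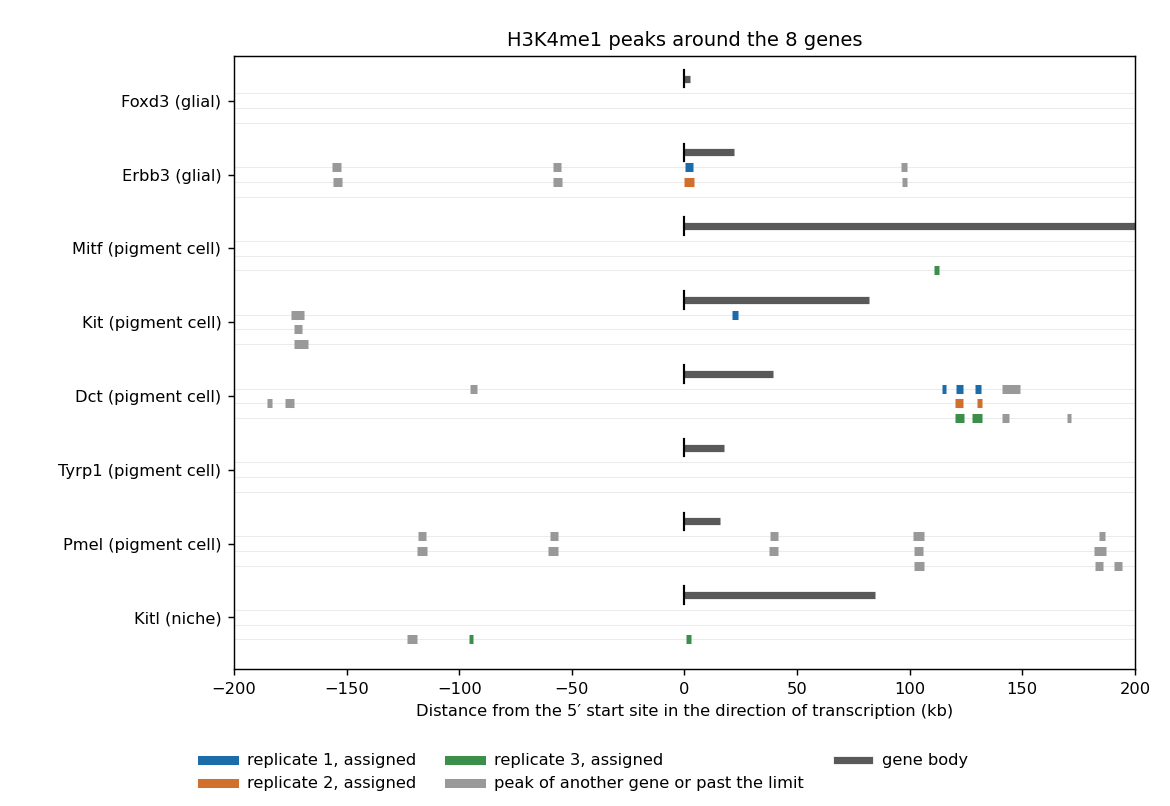
Peaks around the 5′ start site of each gene, from 200 kb upstream to 200 kb downstream in the direction of transcription, with 1 line per replicate (1 at the top, 3 at the bottom) under the gene body. Coloured blocks are peaks assigned to the gene and grey blocks are peaks of another gene or past the 100 kb limit. Dct has blocks of all 3 colours on its 3′ side, Erbb3 has blocks of replicates 1 and 2 at its start, and Tyrp1 and Foxd3 have none in the window. The second Mitf region lies beyond the right edge.

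Erbb3 and Foxd3 were examined first as the glial genes. Erbb3 encodes a receptor for neuregulins, the signals from axons on which Schwann cell precursors depend for survival. The gene (ENSMUSG00000018166.8) lies on the minus strand of chromosome 10 from 128567523 to 128589652 in GRCm38, over 22.1 kb, with 1 start site. Its single region, of 4357 bp from 128585592 to 128589948, covered the start site and coding sequence at the 5′ end of the gene. In replicate 1 the peak spanned 3500 bp (128585923 to 128589422) and stopped 230 bp inside the gene, short of the start site. In replicate 2 it spanned 4357 bp and ran over the start site. In replicate 3 no peak lay within 216 kb of the start site.

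Where present, the Erbb3 peak was of upper-middle rank. Its total signal was 35866 in replicate 1 and 62774 in replicate 2, or 2.51 and 2.59 times the weakest peak of the list, at percentiles 62.6 and 66.1. The highest pileup was 29 in replicate 1, 2333 bp from the start site, and 34 in replicate 2, 2783 bp from it. The peak was broad rather than tall, since by highest pileup its percentiles were 33.2 and 23.6. Of the bases of Erbb3 with its flanks, 10.9% lay under a peak in replicate 1, 13.6% in replicate 2 and 0% in replicate 3, on average 8.15% ± 7.18 (SD, n = 3). This was the largest share among the 8 genes, and the SD was nearly as large as the mean, because replicates 1 and 2 were close and replicate 3 was at 0. Erbb3 held 43.6, 63.7 and 0 ppm of the total signal of the lists.

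The 200 bases centred on the highest pileup of replicate 2, in an intron of Erbb3, are shown because they are the best-marked stretch of any glial gene of the group. They are at chr10:128586768-128586967 of GRCm38 and are read from the plus strand, opposite to the gene. The capitals mark the reverse complement of ACAAAG, a sequence of the SOX type, of which Sox10 is the best-known glial factor.
Erbb3 region 1: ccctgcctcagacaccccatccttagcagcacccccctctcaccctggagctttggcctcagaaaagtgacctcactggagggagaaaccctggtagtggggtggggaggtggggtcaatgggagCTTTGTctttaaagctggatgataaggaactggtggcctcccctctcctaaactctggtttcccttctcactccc
ACAAAG was searched on both strands, and 14.8% of the 19246 windows of this length at the highest pileups of all regions contained it. The match is a description of the letters and not a bound site.

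Foxd3 encodes a forkhead transcription factor of the early neural crest that is kept in glia and is known to hold back Mitf. It is a single-exon gene of 2.32 kb (ENSMUSG00000067261.4, plus strand, chromosome 4 from 99656299 to 99658622). No peak was assigned to it in any replicate. The nearest peak was 379, 378 and 379 kb from its start site in replicates 1, 2 and 3, toward Ror1, and 0% of the bases within 250 kb on either side lay under a peak. The 3 replicates were alike in this, and each distance was above the upper quartile over all genes, which was 267, 320 and 330 kb.

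The pigment cell genes were examined next, from the regulator and receptor to the enzymes and structural proteins of the melanosome. Mitf encodes the transcription factor that governs the melanocyte lineage and drives the pigment enzyme genes. It spans 214 kb of the plus strand of chromosome 6 (ENSMUSG00000035158.15, 97807052 to 98021349) and has 6 annotated start sites, of which the most 3′ give the melanocyte form. A peak of replicate 3 lay in an intron (97917874 to 97920294, 2421 bp), 9.51 kb before the start site at 97929799. Its total signal was 24399, at percentile 23.2 and 1.26 times the list minimum. The other region, from 98111857 to 98115433, was intergenic and 90.5 kb beyond the 3′ end. It had a peak in replicates 1 and 3, with a total signal of 21926 and 27218 at percentiles 36.1 and 32.8. All 3 Mitf peaks were in the weaker part of their lists by total signal. From the melanocyte start at 97991921 the nearest peak was 121 kb away in replicate 1, 503 kb in replicate 2 and 71.6 kb in replicate 3, so no replicate had a peak close to it. The share of bases of Mitf with its flanks under a peak was 0, 0 and 1.08%, a mean of 0.360% ± 0.623 (SD, n = 3).

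Kit encodes the receptor tyrosine kinase that melanoblasts need for migration and survival. The gene (ENSMUSG00000005672.12, plus strand) spans 81.8 kb of chromosome 5 from 75574916 to 75656722. Replicate 1 had a peak in an intron, from 75596085 to 75598830 (2746 bp) and 21.1 kb from the nearer start site. With a total signal of 14914 this peak stood at percentile 4.62, only 1.05 times the weakest peak of the list, and at percentile 38.5 by highest pileup. Replicates 2 and 3 had none, and their nearest peaks were 170 and 167 kb from a start site. The share of bases under a peak was 2.99, 0 and 0%, a mean of 0.997% ± 1.73 (SD, n = 3). A stronger region lay outside the limit, 167 kb upstream of the gene (75400348 to 75407965) in intergenic DNA between Pdgfra and Kit. It had a peak in all 3 replicates at percentiles 68.1, 60.7 and 78.6, and the closest protein-coding start site was that of Kit. It was not counted for Kit because of its distance.

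Dct encodes dopachrome tautomerase, an enzyme of melanin synthesis and an early marker of melanoblasts. The gene (ENSMUSG00000022129.4, minus strand) spans 39.5 kb of chromosome 14 from 118012790 to 118052244, and 0% of its bases and flanks lay under a peak in each replicate. It was nevertheless the 1 gene of the group with regions found in all replicates, and it had 2 of them. Both lay downstream of Dct inside an intron of Gpc6, a neighbouring gene of 1050 kb that encodes a glypican of the cell surface. Dct region 1 (117920163 to 117924497) was 88.3 kb from the body of Dct, and Dct region 2 (117928127 to 117932030) was 80.8 kb from it. Their assignment to Dct rests on the nearest start site, and 3 of the 15 regions over Gpc6 were in all replicates.

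Dct region 2 was the stronger of these. Its total signal was 58393 in replicate 1, 75126 in replicate 2 and 43268 in replicate 3, at percentiles 79.5, 72.9 and 61.6. The highest pileup was 84, 91 and 44, and the 3 maxima began at 117931012, 117931066 and 117931005, within the same short stretch. Dct region 1 had a total signal of 41236, 31330 and 46453, at percentiles 68.3, 24.9 and 65.2, and thus ranked low in replicate 2. A weaker peak of replicate 1 alone (117936275 to 117937730) stood at percentile 37.7, with 22431 pileup units. Together the regions assigned to Dct held 148, 108 and 121 ppm of the signal of the lists, more in each replicate than those of any other gene of the 8. Of all protein-coding genes, 10.4% had as many assigned regions as Dct and 8.26% had as many in all replicates.

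The 2 Dct regions depend on the distance limit, since with 50 kb in place of 100 kb none was left. With a required overlap of 50% of both peaks, or with the stronger 50% of each list alone, 1 of the 2 was counted. The 200 bases around the highest pileup of Dct region 2 in replicate 1 are shown, as the strongest region of the group, at chr14:117930912-117931111 of GRCm38 on the plus strand. None of the motifs searched was in this window, so it has no capitals.
Dct region 2: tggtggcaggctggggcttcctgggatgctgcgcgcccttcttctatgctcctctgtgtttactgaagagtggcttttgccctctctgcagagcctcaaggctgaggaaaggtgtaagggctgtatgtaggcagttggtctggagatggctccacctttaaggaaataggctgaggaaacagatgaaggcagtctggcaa
Of the 200 bases around the highest pileup of Dct region 2, 0% were repeat-masked, as against 83.0% at Dct region 1.

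**Figure D2:**
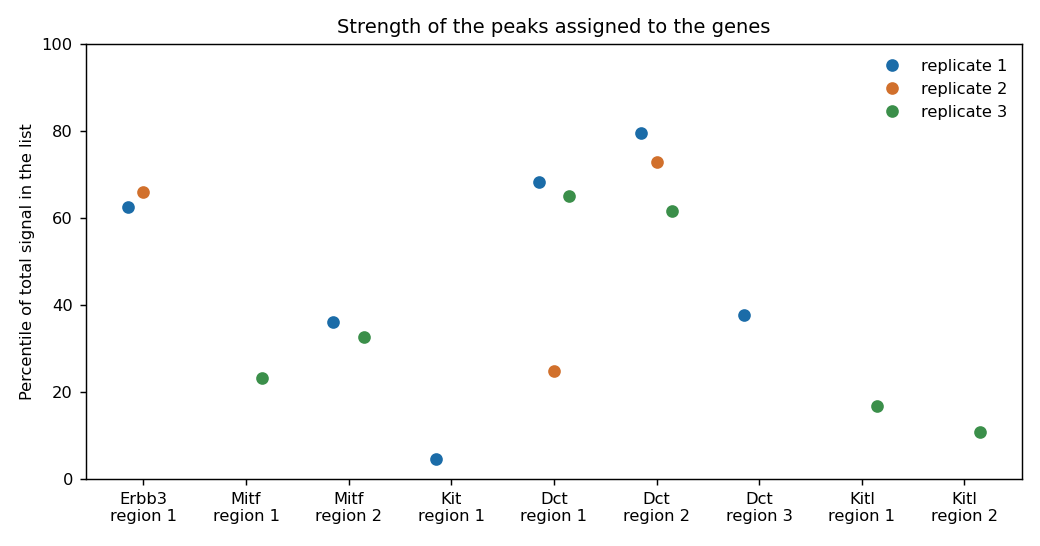
Percentile of total signal within its own list (y axis, %) of each peak assigned to the genes, by region (x axis) and replicate (colour). Dct region 2 has a point from each replicate between 61.6 and 79.5, Erbb3 region 1 has points from replicates 1 and 2 at 62.6 and 66.1, and the Kit and Kitl points are all below 20.

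Tyrp1 encodes an enzyme that acts in the later steps of eumelanin synthesis, and Pmel the protein that forms the fibrils on which melanin is laid down. Neither gene had an assigned peak in any replicate. Tyrp1 (ENSMUSG00000005994.14, plus strand, chromosome 4 from 80834123 to 80851719, 17.6 kb) had its nearest peak 486, 487 and 486 kb from a start site, each time in Mpdz. Of the bases within 250 kb of its start site, 0% lay under a peak. Tyrp1 was the gene of the group farthest from any peak in every replicate. Pmel (ENSMUSG00000025359.10, plus strand, chromosome 10 from 128704195 to 128720238, 16.0 kb long) was different in its surroundings. The nearest peak was 36.0 and 35.5 kb from a start site in replicates 1 and 2, over Dgka, and 99.6 kb in replicate 3, over Dnajc14. Within 250 kb on either side of the Pmel start site, 4.35, 5.95 and 2.85% of bases lay under a peak, above the mean over all genes of 3.39, 3.36 and 2.38% in each replicate. The gene body was thus free of peaks in a stretch that was not.

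Pmel and Erbb3 lie 115 kb apart on chromosome 10, with 5 protein-coding genes between them. Of these 5, 1 gene had a peak in at least 1 replicate (Ikzf4, in replicates 1 and 2) and 0 in all. The wider windows of Pmel and Erbb3 overlap and share peaks, so their values are not independent of each other.

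The promoters of Tyrp1 and Dct are of interest because Mitf is known to act on such promoters through a sequence named the M-box, the core of which is TCATGTG. Promoter sequences from RefSeq (GRCm38, 250 bases before to 50 after a start) were matched by symbol for 6 of the 8 genes, with 9 entries. Erbb3 and Pmel had no entry. TCATGTG, on either strand, was found once in the Tyrp1 promoter and 2 times in the Dct promoter, and 3.77% of 32851 promoters contained it. The other 7 entries of the group did not contain it in this window. The matches are shown in capitals with the bases around them, each on the strand of its gene, at chr4:80834155-80834183 (47 bases before the RefSeq start), chr14:118052380-118052408 (151 bases before) and chr14:118052461-118052489 (232 bases before).
Tyrp1 promoter: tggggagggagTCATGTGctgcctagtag
Dct promoter, nearer match: tgcacttagggTCATGTGctaacaaagag
Dct promoter, farther match: cttggctgggaCACATGAgcccaataaag
The farther Dct match reads CACATGA on the strand of the gene and TCATGTG on the other. None of these stretches lay under a peak in any replicate.

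Other motifs were searched in the same promoters. CATGTG, which is part of TCATGTG, was in 14.2% of all promoters and, among the 8 genes, in those of Tyrp1 and Dct at the same places. CACGTG, the other E-box searched, was in the Foxd3 promoter and in 7.15% of all. ACAAAG was in the promoters of Tyrp1 and Dct and in 18.7% of all, and ACAATG was in that of Dct and in 12.6% of all. GCCNNNGGC, of the AP-2 type, was in both Kit entries, in 1 of the Mitf entries and in 16.6% of all. These shares are high for all motifs but TCATGTG and CACGTG, and a match does not show a site in use.

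Kitl encodes the ligand of Kit and is made by skin epithelium and mesenchyme rather than by the pigment cells themselves. The gene (ENSMUSG00000019966.18, plus strand) spans 84.8 kb of chromosome 10 from 100015630 to 100100416 and has 4 annotated start sites. Both of its regions came from replicate 3. Kitl region 2 (100016135 to 100018574, 2440 bp) began 219 bp past the nearest start site and overlapped coding sequence at the 5′ end. Its total signal was 21473, at percentile 10.9 and 1.11 times the list minimum. Kitl region 1 lay 94.0 kb upstream (99919770 to 99921680), at percentile 16.8 by its total signal of 22787. In replicates 1 and 2 the nearest peak was 458 kb from a start site in both. The share of bases under a peak was 0, 0 and 2.57%, a mean of 0.858% ± 1.49 (SD, n = 3), so that the niche gene was marked in 1 replicate only. Both peaks ranked low by total signal, but by highest pileup Kitl region 1 was at percentile 64.9 and Kitl region 2 at 16.5.

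The window at the highest pileup of Kitl region 2 is shown because it is the one marked start region of the niche gene. It covers chr10:100017510-100017709 of GRCm38 on the plus strand, in an intron, and the capitals mark ACAAAG and the reverse complement of TCATGTG.
Kitl region 2: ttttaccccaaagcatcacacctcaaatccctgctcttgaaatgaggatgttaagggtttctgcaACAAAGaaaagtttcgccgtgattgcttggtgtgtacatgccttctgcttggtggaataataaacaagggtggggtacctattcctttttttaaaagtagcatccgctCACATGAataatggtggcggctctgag
Among all windows of this length, TCATGTG was present in 3.15% and ACAAAG in 14.8%. Of the 9 windows of the group, this was the only one with TCATGTG or CATGTG (14.9% of all windows). ACAAAG was also in the windows of Erbb3 region 1 and Kitl region 1, and ACAATG (8.74% of all windows) in that of Mitf region 1. CACGTG (3.24% of all windows) and GCCNNNGGC (8.27%) were in none of the 9.

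Regions just inside the 100 kb limit were Kitl region 1 at 94.0 kb, Mitf region 2 at 90.5 kb and Dct region 1 at 88.3 kb. Just outside it, a region 101 kb from Dct (117903342 to 117911458, also in Gpc6) had a peak in replicates 1 and 3 at percentiles 67.6 and 9.89. The next for Kitl was 119 kb upstream, in replicate 3 at percentile 52.1, which was higher in total signal than either region counted for Kitl. A region 225 kb from Dct, again in Gpc6, was found in all 3 replicates at percentiles 31.2, 39.9 and 41.4.

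**Figure D3:**
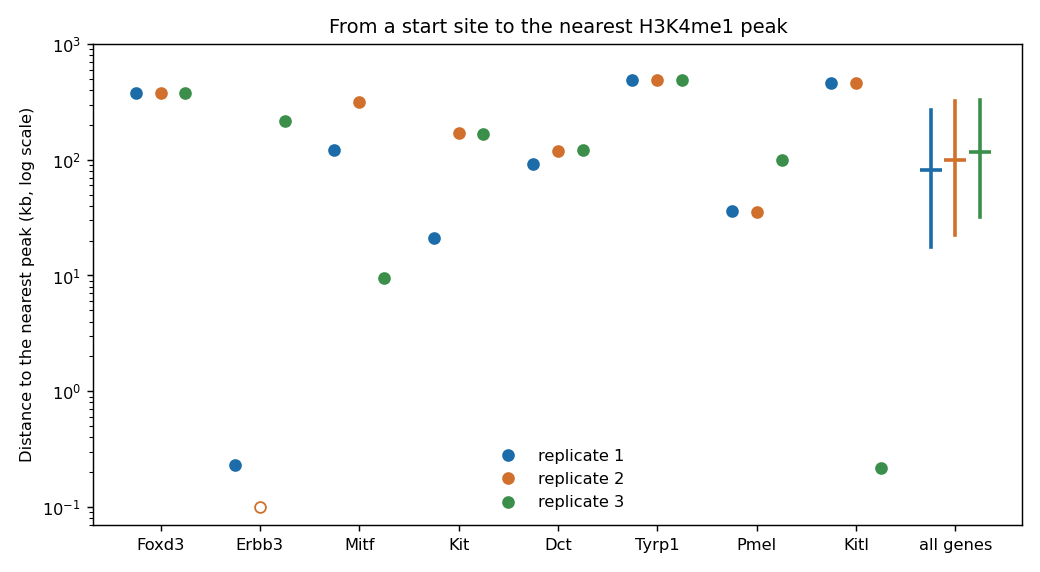
Distance in kb (log scale) from a start site of each gene to the nearest peak of any assignment, 1 point per replicate. The open point marks a peak that covers the start site, at distance 0, and is drawn at the lower edge. The bars at the right span the quartiles over all protein-coding genes with the median marked. Tyrp1 and Foxd3 lie above the bars in every replicate, and the points of Erbb3, Mitf, Kit and Kitl are spread between replicates.

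The median distance from a start site to the nearest peak over the 8 genes was 106, 244 and 144 kb in replicates 1, 2 and 3, against 80.8, 99.0 and 117 kb over all genes. Of the 8 genes, 3 were farther from a peak than the upper quartile of all genes in replicate 1, 3 in replicate 2 and 2 in replicate 3. Kitl differed most between replicates, at 458 kb in replicates 1 and 2 and 0.219 kb in replicate 3. For Dct the nearest peak was 92.2 kb away in replicate 1, over Gpr180 on its 5′ side, and 120 kb away in replicates 2 and 3, where it was Dct region 2.

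In the order of mean share of bases under a peak, Erbb3 was followed by Kit, Kitl and Mitf, with Dct, Tyrp1, Pmel and Foxd3 at 0. Each of the first 4 had a replicate at 0, so all ranges overlapped and no neighbours in this order differed beyond their spread. Over all protein-coding genes the mean share was 4.05, 4.15 and 2.70% in replicates 1, 2 and 3, and over the 8 genes it was 1.74, 1.70 and 0.457%. The median was 0% for both in each replicate. By bases under a peak within 250 kb of the start site, the order was Pmel (4.38% ± 1.55), Dct (2.97% ± 0.686), Erbb3 (2.71% ± 1.57), Kit (1.26% ± 0.477), Kitl (0.581% ± 1.01) and Mitf (0.161% ± 0.280), each with SD and n = 3, with Tyrp1 and Foxd3 at 0. The ranges of Pmel, Dct and Erbb3 overlapped, whereas the lowest Dct value, 2.46%, was above the highest of Kit, 1.70%.

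To compare glial, pigment cell and niche genes, the mean share of bases of the gene with its flanks under a peak was taken within each replicate. The glial genes had 5.45, 6.78 and 0%, a mean of 4.08% ± 3.59 (SD, n = 3), and all of it came from Erbb3. The pigment cell genes had 0.598, 0 and 0.216%, a mean of 0.271% ± 0.303, from Kit in replicate 1 and Mitf in replicate 3. This share depends on gene length, since the gene with its flanks spans 32.1 kb at Erbb3, 91.8 kb at Kit and 224 kb at Mitf. It also leaves out peaks assigned by distance. With those counted, Dct held 148, 108 and 121 ppm of the signal of the lists, and Erbb3 43.6, 63.7 and 0 ppm. The groups were not compared by that measure. The niche gene had the 0.858% ± 1.49 given above. With the stronger 50% of each list alone, the pigment cell and niche shares were both 0% in each replicate, and the glial mean was 4.08% as before.

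By the share over body and flanks, the glial minus pigment cell difference was 4.85, 6.78 and -0.216 percentage points, a mean of 3.80 ± 3.61 (SD, n = 3). The glial genes were higher by this share in 2 of 3 replicates. The difference did not pass an exact two-sided sign-flip permutation test over replicates (p = 0.5), and with 3 replicates the smallest p this test allows is 0.25. The niche minus pigment cell difference was -0.598, 0 and 2.36 percentage points, a mean of 0.587 ± 1.56 (SD, n = 3; exact sign-flip permutation p = 1.0). Without replicate 3 its mean was -0.299, so its direction was set by that library. Of the 2 comparisons made, neither could give a p below 0.05 with 3 replicates, so the tests do not decide whether the groups differ. In the niche comparison the difference of 0 in replicate 2 raised the smallest possible p further.

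**Figure D4:**
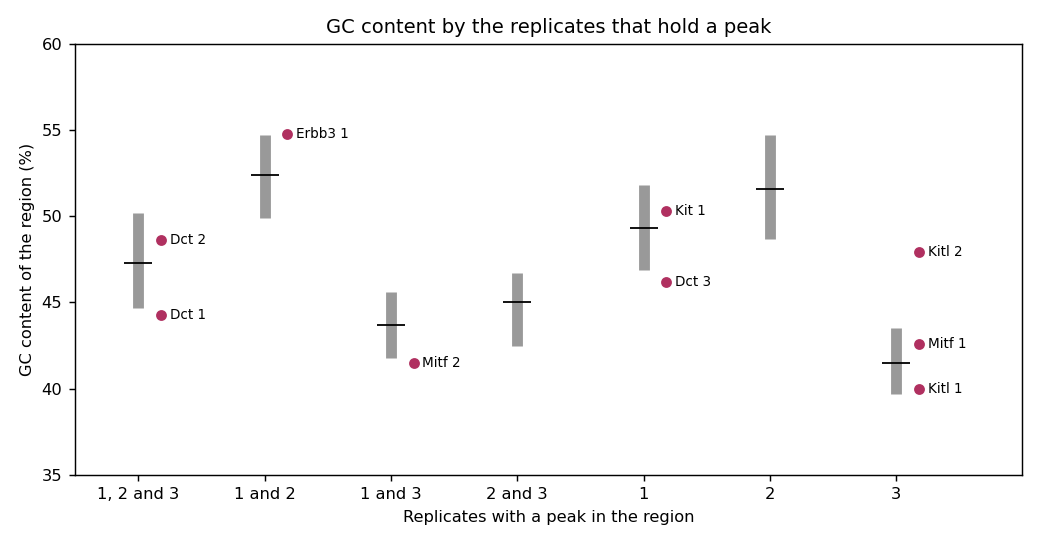
GC content in % (y axis) of regions by the replicates that hold a peak there (x axis). Grey bars span the quartiles of all merged regions of that kind with the median as a black line, and points are the regions assigned to the genes. Erbb3 region 1, in replicates 1 and 2, has the highest GC content at 54.8%, and the regions of replicate 3 alone range from 40.0 to 47.9%.

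Regions differed in base composition by the replicates that held them. Over all merged regions, those with a peak in replicates 1 and 2 but not 3 had a median GC content of 52.4%, those of all replicates 47.3% and those of replicate 3 alone 41.5%. Erbb3 region 1, absent from replicate 3, had 54.8%. The regions of replicate 3 alone had 42.6% (Mitf region 1), 40.0% (Kitl region 1) and 47.9% (Kitl region 2), and Mitf region 2, in replicates 1 and 3, had 41.5%. Dct regions 1 and 2, in all replicates, had 44.3 and 48.6%. The Kit region of replicate 1 had 50.3% and Dct region 3, also of replicate 1 alone, 46.2%. The part of base composition in the absence of Erbb3 from replicate 3, and in the presence of Kitl there, was not tested.

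The 8 genes were then set beside other genes of their lineages, chosen from general knowledge of these cells and read by the same rule over body and flanks. Other genes of glia numbered 16. A peak was found at 8, 9 and 5 of them in the 3 replicates, against 24.9, 22.6 and 19.6% of all genes. In all replicates it was found at 5 (31.2%), against 15.5%. Among these 5 were Ets1 (122 kb), Mbp (110 kb) and Gap43 (92.2 kb), the last 2 named after their values were seen. Of genes over 100 kb, 46.0% had a peak in all replicates, and of those from 30 to 100 kb, 18.8%. The list was not matched for length. Ngfr, the low-affinity neurotrophin receptor of crest cells and glia that is also found in mesenchyme, had the largest share of bases under a peak, 75.5% ± 4.69 (SD, n = 3). Ets1, a transcription factor of crest and endothelium, had 26.0% ± 3.26, and Egr2, a regulator of myelination that is also active in other cells, had 16.7% ± 13.6. Sox10, the transcription factor that crest glia and melanoblasts share, had 34.0, 48.0 and 0%, the same split between replicates as Erbb3. Sox2 and Dhh, named after their values were seen, had peaks in replicates 1 and 2 but not 3 as well. The peaks of Sox10, Sox2 and Dhh had a GC content from 56.8% at Sox10 to 59.7% at Sox2. This split was not particular to glial genes. It was also seen at Aqp2 of kidney, and at Krt5, Cdh1 (surface epithelium) and Trpm1 (pigment list), these 3 named after their values were seen. By list, it was seen at 3 of 16 glia, 2 of 15 pigment and 0 of 7 niche genes. Among the markers it was seen at 0 of 10 for facial mesenchyme, 2 of 6 for surface epithelium and 1 of 10 for kidney. Of all 19251 merged regions, 2628 had it, and its share over all genes is not given here. No peak was found in any replicate at 7 glial genes, among them Fabp7, Cdh19, S100b, Gfra3 and Erbb2, which encodes the partner receptor of Erbb3.

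Other pigment genes numbered 15. A peak was found at 5, 5 and 4 of them in the 3 replicates, against 24.9, 22.6 and 19.6% of all genes. In all replicates it was found at 3 of 15, against 15.5%. The 3 genes were Tfap2a (56.7% ± 14.2 of bases) and Pax3 (54.4% ± 7.34), transcription factors that also act in other crest derivatives of the face, and Rab27a (8.25% ± 3.16), a GTPase of melanosome transport that is used in other secretory cells (SD, n = 3). Sox10 was also in this list. The counts of the list were slightly above the shares of all genes, near what 15 genes of any kind would give. The 9 genes without a peak in any replicate were Ednrb, Tyr, Mlana, Slc45a2, Slc24a5, Mc1r, Gpnmb, Rab38 and Tfec, among them the gene of tyrosinase, which catalyses the first step of melanin synthesis. Tyr was in this like Tyrp1 and Pmel, and like most genes, since 28.8% of all genes had a peak in at least 1 replicate.

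Other secreted factors of the niche numbered 7. A peak was found at 4, 3 and 5 of them in the 3 replicates, against 24.9, 22.6 and 19.6% of all genes. In all replicates it was found at 3 (42.9%), against 15.5%. Cxcl12, a chemokine of mesenchyme, had 31.7% ± 7.22, and Edn3, the ligand of Ednrb, had 17.6% ± 0.680 (SD, n = 3). Asip, annotated as the gene a and known for switching melanocytes to yellow pigment, had 8.97% ± 1.37 (SD, n = 3). Its annotation spans 260 kb and held 6 regions, and 46.0% of genes over 100 kb had a peak in all replicates. Fgf2 had 7.80% ± 6.76, with none in replicate 2. Edn3 had nearly the same share in each replicate, unlike Kitl. Hgf and Pomc had no peak in any replicate, and Nrg1, the ligand of Erbb3, named after its values were seen, had 0, 0 and 0.164%. The median share of bases was 7.26% over the glial list, 0% over the pigment list and 7.80% over the niche list, beside 0% over all genes and 38.7% over the facial mesenchyme markers. Of the 10 facial mesenchyme markers, 8 (80.0%) had a peak in all replicates, against 15.5% of all genes. The share of each cell type in the pad was not measured.

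**Figure D5:**
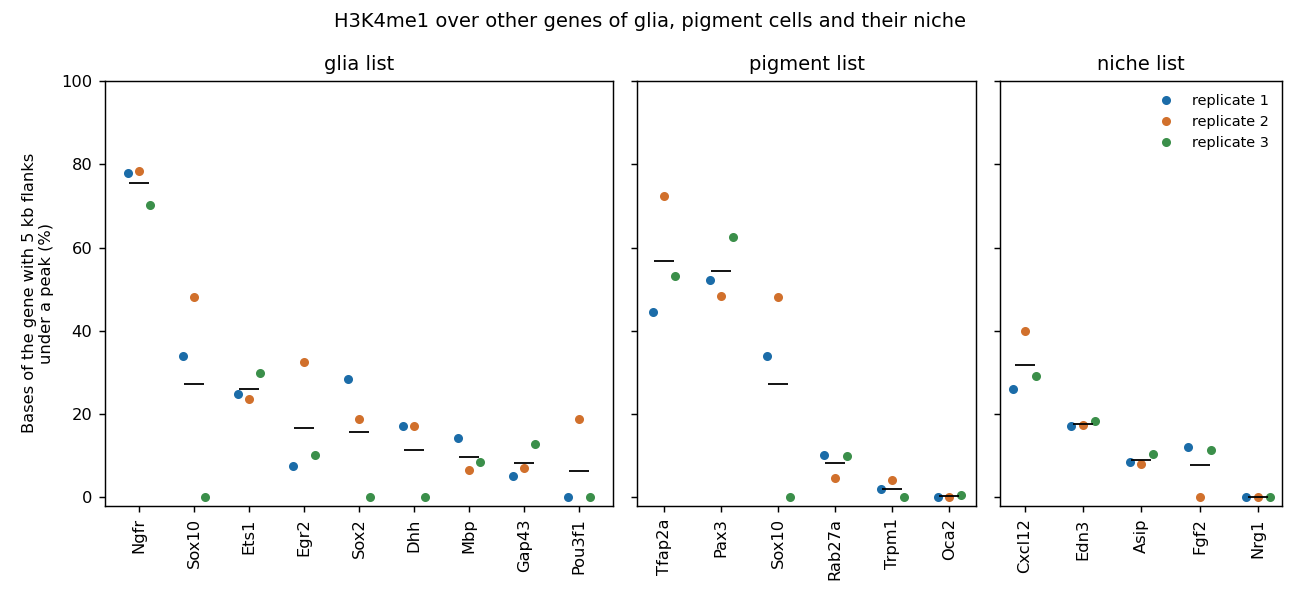
Share of bases (%) of each further gene with its 5 kb flanks that lay under a peak, 1 point per replicate with the mean as a line, for those genes of the glia, pigment and niche lists that had a peak in at least 1 replicate. Ngfr, Tfap2a, Pax3 and Cxcl12 are high in each replicate, and Sox10, Sox2 and Dhh are at 0 in replicate 3.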

How the data were processed

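Whisker pads of wild-type embryos at embryonic day 12 were profiled by CUT&Tag. The submitters' processing notes name Bowtie2 2.3, SAMtools 0.1.19, bedtools, SEACR 1.3 and mm10, and the treatment of duplicate reads is not given in the sources used here. The authors ran SEACR in stringent mode on each replicate by itself, with no IgG control, and retained the highest 1% of blocks of continuous signal. The deposited lists give the total and the maximum signal of each peak, in whole pileup units with no scaling to depth. The sequencing depth is not in the lists, and a gene without a peak may still carry the mark below the limit of its list.

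The 3 H3K4me1 lists were joined into regions by an overlap of at least 1 bp and set against GENCODE vM21 (54050 start sites of protein-coding transcripts). A region was assigned by distance from its edge. Sequence and GC content were read from GRCm38, and positions are 1-based. Every peak ended within the chromosome lengths of GRCm38. Motifs were searched in promoters of 300 bases and in 200 bases at the highest pileup of each region. Group differences were tested with an exact sign-flip permutation test over replicates at a threshold of 0.05. No p was adjusted across genes, since no fit across genes was possible with 1 group. Scripts used Python 3.11.15, pandas 2.3.3, numpy 2.4.6 and pysam 0.24.0, and region assignment was tested on simulated peaks.

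All 8 genes were named. For each further list, the genes without a peak in any replicate and up to 4 with the largest share of bases under a peak were named, and genes outside this rule are marked in the text. The values of some list genes are not reported by themselves here, although the genes stay in the counts. Single regions were to be the strongest in all replicates of each gene, those at start sites and those nearest to the 100 kb limit, and the other assigned regions were added after their values were seen. The genes, lists and motifs were chosen with earlier results of these data known, so no pattern is independent support for the choice. Peak strength, overlap, flanks, start site windows and replicates were varied as alternatives.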

Additional observations from a re-analysis of the deposited data

How the results depend on the processing

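Of 196 values obtained under alternatives for 24 results, 169 stayed within their limits, 26 moved and 1 reversed. A difference counted as staying unless its sign turned, and a share if it moved by no more than 1 SD between replicates. Many values that stayed were region counts of 0 at single genes, which stricter settings could not raise. The tally is therefore not a measure of stability. Without the region counts and percentiles of single genes, 85 stayed, 12 moved and 1 reversed. The number of regions in all replicates, 2 in the report, was 1 with the stronger 50% of each list, 1 with an overlap of at least 50% of both peaks and 0 with a distance limit of 50 kb. The stronger 50% of each list also left 1 niche gene in place of 3. With it, and with the strongest 10000 peaks, the pigment cell share went from 0.271 to 0% and that of Kitl from 0.858 to 0%, moves of less than 1 SD between replicates. Replicate 3 decided several counts. Without replicate 3, 1 of the 8 genes (Erbb3) had a peak in each list and 1 had it at a start site, the glial list had 8 genes in place of 5, the pigment list 5 in place of 3, and the niche minus pigment cell difference turned to -0.299 percentage points (exact permutation p = 1.0). When each replicate was left out in turn, genes with a peak in all ranged from 0 to 1, start sites from 0 to 1, regions from 2 to 3, the glial share from 2.72 to 6.11%, the pigment cell share from 0.108 to 0.407%, the niche share from 0 to 1.29%, the glial minus pigment cell difference from 2.32 to 5.81, the niche minus pigment cell difference from -0.299 to 1.18, and the list counts from 5 to 8 (glia), 3 to 5 (pigment) and 3 to 4 (niche). In replicate 1 alone, chosen after seeing the data, 2 genes, 1 start site and 6 regions had a peak and the pigment cell share was 0.598%. Start sites of the GENCODE basic set, also added later, left 2 regions. By maximum signal in place of total signal, the percentile of the highest peak went from 64.3 to 28.4 for Erbb3 and from 16.8 to 64.9 for Kitl, and from 4.62 to 38.5 for Kit. The causes were not tested. No paired analysis was possible because there was 1 group, the IgG samples with the same replicate numbers being not analysed here. Depth was not measured, so what it limits in these lists is unknown.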
